A study of Mus musculus with 6 samples.

Results

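The genes described here encode integrins, laminins and the other main proteins of the basement membrane. They are a list of 19 integrin genes and 17 matrix genes, taken by symbol with no threshold on a measured value. Earlier results of these data were known when the list was drawn up. Of the 36 listed genes, 35 were measured, by 79 of the 45037 probe sets of the array, and Itga11 had no probe set in the annotation used. Each gene is given by its brightest probe set, and the 18193 genes with their own probe set are the background. Expression was profiled on Affymetrix arrays in sorted distal retinal progenitor cells (RPCs) of mouse embryos at embryonic day 12, with 3 Pax6-deficient and 3 control pools.

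The mutant cells were Pax6 loxP/loxP;α-Cre and the control cells were Pax6 +/+;α-Cre, both on an ICR background. Both groups therefore carried the α-Cre transgene, in which the Pax6 P0 promoter and the α enhancer of the peripheral retina drive Cre together with GFP. Cells of dissociated eyes were sorted for GFP and pooled. In the paper, the transgene is occasionally inactive in some progenitors, which then escape recombination. GFP comes from the same transgene, and how many such cells the sorted pools held is not given. The pools are described as biological repeats, and the sources used here do not give how many embryos each held. The difference between the groups is a log2 fold change, mutant minus control, tested with limma. A call needed 3 things together, namely a fold change of 1.5 or more, a p below 0.05 and an adjusted p (Benjamini-Hochberg) below 0.10.

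Integrins are cell-surface receptors made of an α and a β chain, and the pairing sets which ligand is bound. Laminins are trimers of an α, a β and a γ chain that polymerise on the cell surface, where integrins and dystroglycan hold them, and nidogens and perlecan tie this sheet to the collagen IV network. In the optic cup, a basement membrane lines the vitreal surface of the neural retina, where the end feet of the progenitors attach, and another lies beneath the pigment epithelium.

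Pax6 was lower in the mutant cells by the single probe set that was called (log2 fold change of -1.60, adjusted p = 0.00329), and its other probe sets were not called. The brightest Pax6 probe set gave -0.11 (adjusted p = 0.306), the next gave -0.22, and the dimmest gave 0.10 and -0.12. Markers of other tissues of the eye moved with the groups. Summed over a list, the intensity of 10 pigment epithelium genes was 9436 to 9518 on the mutant arrays and 5898 to 7119 on the control arrays. The sum was 4868 to 5144 in mutant and 2701 to 3818 in control cells for 12 lens and surface ectoderm genes, and 997 to 1330 in mutant and 656 to 681 in control cells for 11 mesenchyme genes. For 12 endothelial and mural genes it was 1166 to 1240 in mutant and 664 to 896 in control cells, and for 10 blood genes it was 6150 to 6682 in mutant and 3326 to 5422 in control cells. These sums did not overlap between the groups, and 6, 4, 5, 5 and 1 genes of these lists were called higher and none lower. Over all genes, 2.28% were called higher and 0.918% lower. In the blood list, the globin gene Hbb-bh1 was the gene called, the mutant arrays lay above the control arrays for Hbb-bh1 and Hba-x, and the groups overlapped for the other 8 genes, the myeloid markers among them. The calls were fewer in some fits that left out 1 array. The pigment epithelium list had 3 without control replicate 2, and the mesenchyme list had 3 without mutant replicate 1. The lens and surface ectoderm list had 3 without mutant replicate 1, 2 or 3 or control replicate 1, and 6 without control replicate 2. The endothelial list had 1 without mutant replicate 1, 2 or 3 and 3 without control replicate 1 or 2, and the blood list had 2 without control replicate 1 and 0 without each of the other arrays. Without the moderation of the variance the 5 lists had 2, 2, 2, 0 and 0. The sum of 9 retinal progenitor markers was lower, at 4704 to 4885 in mutant and 7263 to 7647 in control cells. Such sums weigh bright genes most, and Sfrp2, the brightest of these markers, had a log2 fold change of -0.98. The median log2 fold change of the 9 markers was -0.38. Fgf15, Sfrp2 and Nr2e1 were called, Six6 and Hes1 had overlapping groups, and these 3 calls stood whichever array was left out. The sum of 9 neuronal markers was also lower, at 255 to 307 in mutant and 433 to 674 in control cells, with 5 genes called (2 without mutant replicate 2, and 3 without mutant replicate 3 or control replicate 2). Without the moderation of the variance, 1 neuronal gene was called. Most markers of each list were above the median probe set of the arrays, and those below it were Rpe65, Crygs, Prox1, Foxc2, Twist1, Rgs5, Cspg4, Hba-a1 and Dcx. Endothelial, mesenchymal, lens and pigment epithelial cells express integrins and laminins too. The part of these cell types in the results below was not tested, and in bulk samples a different number of cells of a type and a different amount of RNA per cell cannot be told apart.

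**Figure D1:**
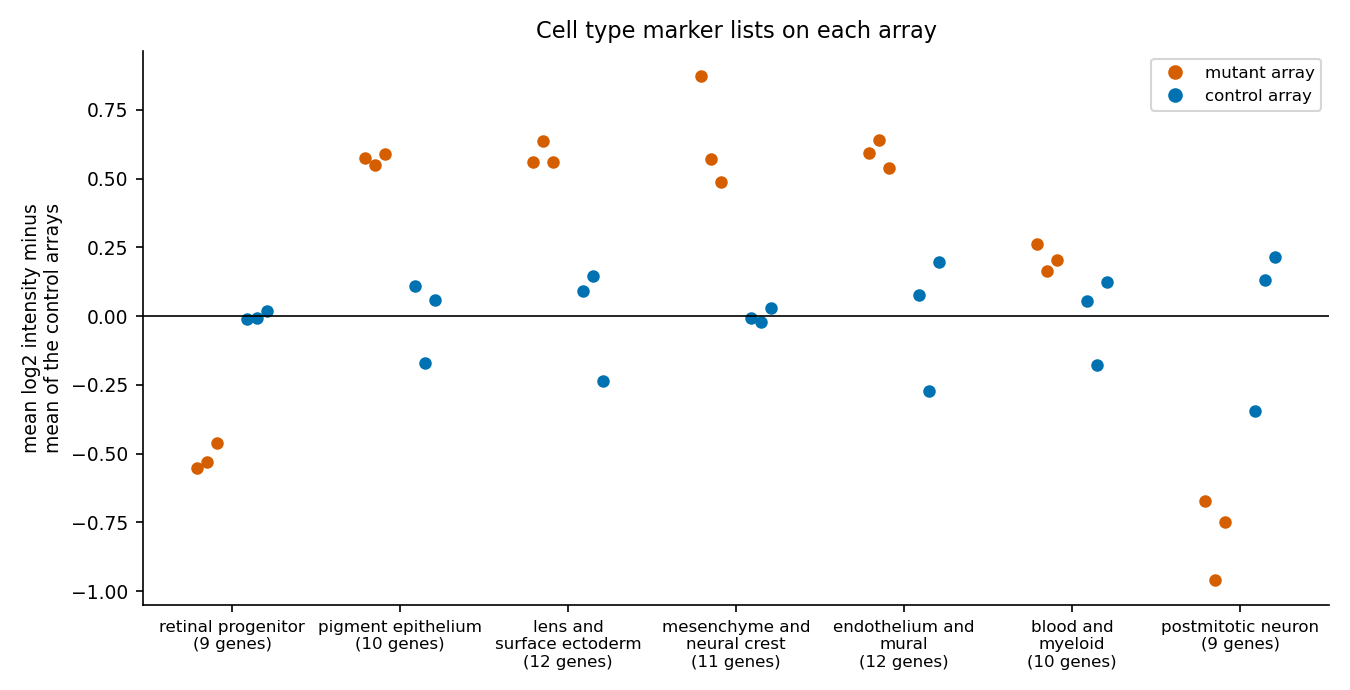
Expression of 7 marker lists on each array. The y axis is the mean log2 intensity of the list relative to its mean over the control arrays; points are single arrays, mutant arrays left and control arrays right. The pigment epithelium, lens, mesenchyme, endothelial and blood lists lay higher on all 3 mutant arrays than on the control arrays, and the progenitor and neuronal lists lay lower.

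Of the 35 measured genes, 2 were called higher in Pax6-deficient RPCs, Lamb1 (laminin β1) and Itga4 (integrin α4), and none was called lower. This was 5.71% of the genes, where 2.28% of all genes on the array were called higher and 0.918% were called lower. Many more of the listed genes differed by less than the fold threshold. Without that threshold, 9 genes were higher at an adjusted p under 0.10 (25.7%, beside 7.15% of all genes) and 1, Lamb2, was lower (2.86%, beside 5.22%). All 3 mutant arrays lay above all 3 control arrays for 14 of the 35 genes (beside 17.0% of all genes) and below them for 3 (8.57%, beside 16.4%). The median log2 fold change was 0.16 over the listed genes and -0.01 over all genes, and 27 of the 35 values were above 0. The listed genes share the 6 arrays and are not independent of each other.

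**Figure D2:**
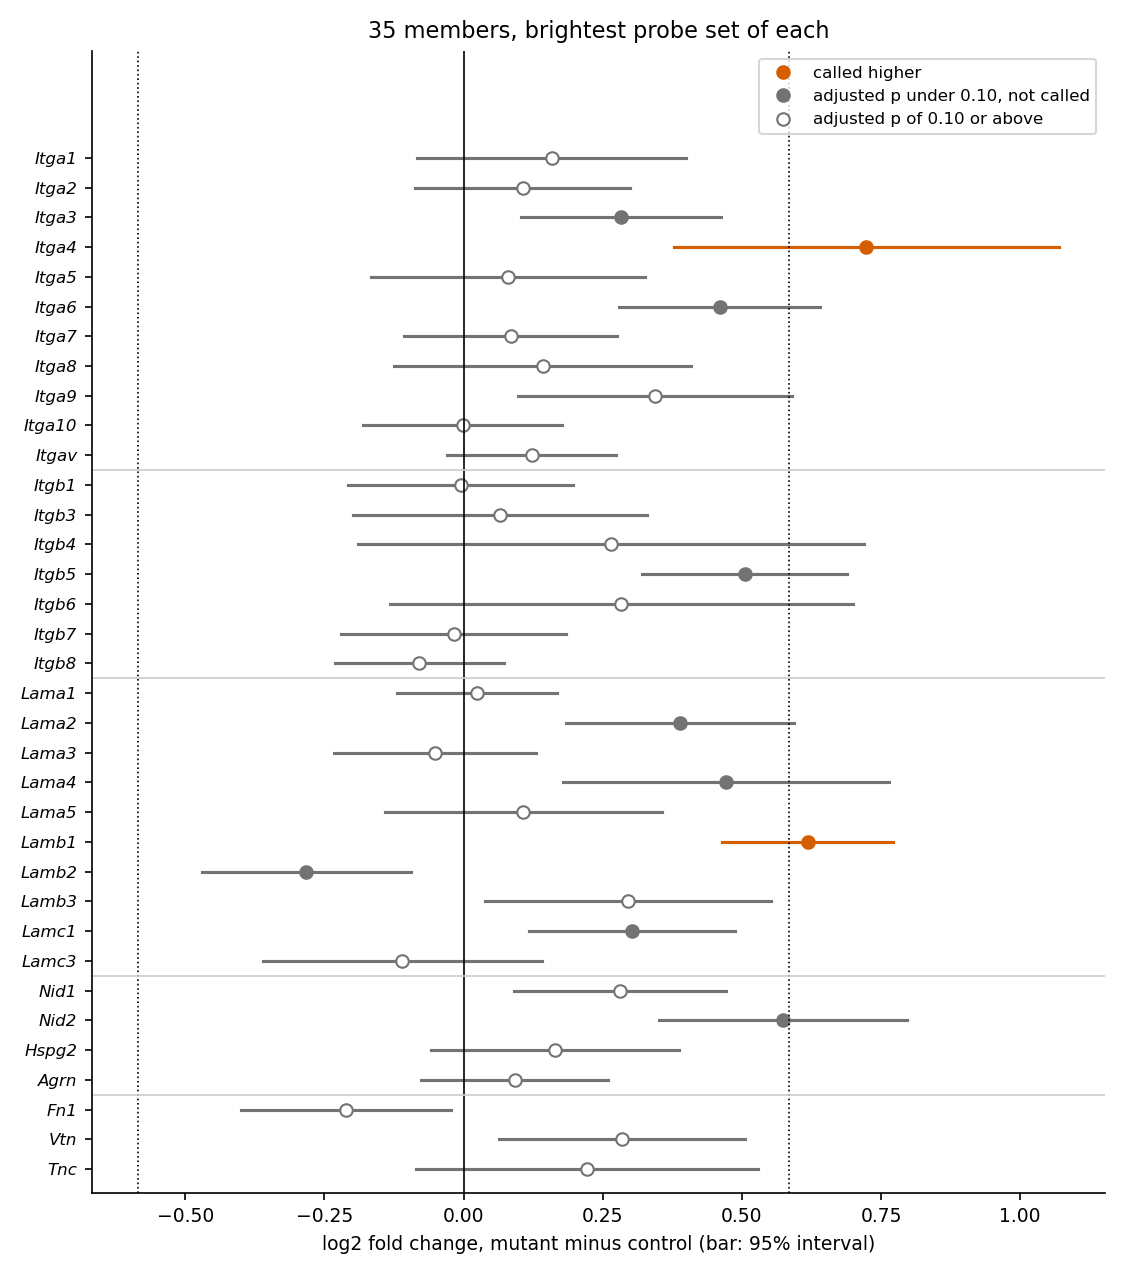
Log2 fold change, mutant minus control, of the brightest probe set of each of the 35 measured genes, with 95% intervals. Dotted lines mark a fold change of 1.5 in either direction; rows are grouped as integrin α chains, integrin β chains, laminins, nidogens and heparan sulfate proteoglycans, and other matrix proteins. Lamb1 and Itga4 are the called genes, and 8 further genes had an adjusted p under 0.10 without being called.

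The start regions of Lamb1, Itgb5 and Itga4, higher by their brightest probe sets, and of Lamb2, which was lower, are shown. Lamb2 was near the threshold (adjusted p = 0.0970) and above it whichever array was left out. Itga4 was lower by the median of its probe sets, which was the value of a single dim probe set. Each region is the 250 bases before the start site on the plus strand of GRCm38.p6, from RefSeq. Capitals mark GGGCGG, the GC box bound by Sp1 and related factors, on either strand. The regions are chr12:31265043-31265292 for Lamb1, chr16:33829415-33829664 for Itgb5, chr2:79255176-79255425 for Itga4 and chr9:108479612-108479861 for Lamb2.
Lamb1: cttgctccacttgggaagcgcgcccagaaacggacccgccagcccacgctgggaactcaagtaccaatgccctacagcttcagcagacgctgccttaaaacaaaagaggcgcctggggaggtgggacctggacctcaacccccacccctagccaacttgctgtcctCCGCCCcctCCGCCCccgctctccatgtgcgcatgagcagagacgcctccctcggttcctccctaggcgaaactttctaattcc
Itgb5: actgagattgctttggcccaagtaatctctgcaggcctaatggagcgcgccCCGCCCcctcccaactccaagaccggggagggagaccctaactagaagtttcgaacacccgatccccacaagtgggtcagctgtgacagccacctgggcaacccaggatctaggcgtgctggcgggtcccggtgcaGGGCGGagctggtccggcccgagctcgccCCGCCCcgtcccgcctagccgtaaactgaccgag
Itga4: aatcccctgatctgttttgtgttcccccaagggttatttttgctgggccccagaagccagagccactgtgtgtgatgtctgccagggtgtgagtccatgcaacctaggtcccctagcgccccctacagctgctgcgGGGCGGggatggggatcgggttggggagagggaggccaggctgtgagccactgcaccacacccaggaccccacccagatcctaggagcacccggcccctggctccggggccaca
Lamb2: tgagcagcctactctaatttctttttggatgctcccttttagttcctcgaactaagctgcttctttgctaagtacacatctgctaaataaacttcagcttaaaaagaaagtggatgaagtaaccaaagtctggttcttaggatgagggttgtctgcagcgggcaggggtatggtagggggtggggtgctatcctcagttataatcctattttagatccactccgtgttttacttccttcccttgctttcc
The Lamb1, Itgb5 and Itga4 regions held 2, 3 and 1 GC boxes and were 62.0%, 65.2% and 64.0% G and C, whereas the Lamb2 region held 0 and was 43.6% G and C. RefSeq listed 30 promoters for 25 of the 36 genes, and 14 of these promoters held GGGCGG on either strand. They belonged to 11 genes, namely Agrn, Hspg2, Itga3, Itga4, Itga5, Itgb1, Itgb5, Lama5, Lamb1, Nid1 and Tnc. Of these, Agrn, Hspg2, Itga5, Itgb1, Lama5, Nid1 and Tnc had an adjusted p of 0.10 or above. The rest, Itga3, Itga4, Itgb5 and Lamb1, were higher at an adjusted p under 0.10. Itga6, Lama2, Lama4, Lamc1 and Nid2 were higher too and were not among the 11. Which of these had a listed promoter is not given here. The regions shown therefore do not stand for all the genes that were higher. Among all 32851 listed promoters of the mouse, 32.7% held the GC box. TTCACGC, letters from the core of the site that the Pax6 paired domain binds, was in 0 of the 30 promoters and in 1.03% of all promoters. TAATTA, a homeodomain site, was in 0 of the 30 and in 4.84% of all. TATAAA was in 3 of the 30, those of Tnc and Vtn, and in 12.4% of all. Motifs were searched on both strands and did not overlap each other in the regions shown. A match is only a run of letters in this window, and any link between these regions and the changes was not tested.

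Among the integrin α chains, 3 of 11 measured genes were higher at an adjusted p under 0.10 (27.3%, beside 7.15% of all genes). These were the laminin receptor chains Itga3 and Itga6 and the fibronectin and VCAM1 receptor chain Itga4. Itga6, whose product pairs with β1 or β4 to bind laminin, had log2 intensities of 8.56, 8.58 and 8.61 on the mutant arrays, against 8.19, 7.98 and 8.21 on the control arrays. All mutant arrays lay above all control arrays, with means of 8.59 ± 0.03 in mutant and 8.13 ± 0.12 in control cells (SD, n = 3 each). The log2 fold change was 0.46 (standard error 0.08, adjusted p = 0.0219), and the other Itga6 probe set gave 0.30 (adjusted p = 0.0727). Itga3, whose product binds laminin with β1, was at 6.94, 6.98 and 6.79 in mutant and at 6.58, 6.57 and 6.71 in control cells. Its mutant arrays lay above the control arrays by a smaller distance, the log2 fold change being 0.28 (standard error 0.08, adjusted p = 0.0857), and its other probe sets gave 0.19 and 0.30.

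Itga4 had log2 intensities of 4.94, 4.99 and 4.98 in mutant cells, against 4.61, 4.04 and 4.09 in control cells. The mutant arrays were close together and the control arrays were spread, at 4.97 ± 0.02 in mutant and 4.25 ± 0.31 in control cells (SD, n = 3 each). The log2 fold change was 0.72 (standard error 0.15, 95% interval 0.38 to 1.07, adjusted p = 0.0393), a fold change of 1.65. The call rested on this probe set. A second probe set above the median probe set of the arrays (3.70) gave 0.40 (adjusted p = 0.269), and 3 dimmer ones gave 0.01, -0.13 and -0.69, the last at 2.56, 2.55 and 2.90 in mutant and 3.02, 3.19 and 3.88 in control cells (adjusted p = 0.135). On every array this last probe set held the middle value of the 5. Their median thus repeated its -0.69 (adjusted p = 0.101), the opposite direction to the call. Itga4 lost its call without mutant replicate 1 (0.74), 2 (0.72) or 3 (0.72) or control replicate 2 (0.62), and without the moderation of the variance.

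Itga9, whose product pairs with β1 and binds tenascin-C and VCAM1, also depended on the probe set. Its brightest probe set was at 5.13, 5.13 and 5.13 in mutant and at 4.67, 4.67 and 5.03 in control cells, and the log2 fold change was 0.34 (standard error 0.10, adjusted p = 0.118). A dimmer one was called higher, at 3.56, 3.80 and 3.71 in mutant and 3.02, 2.39 and 2.92 in control cells (0.91, standard error 0.16, adjusted p = 0.0276), with its mean below the median probe set. This probe set lost the call without mutant replicate 2 (0.86, adjusted p = 0.101), with a pseudocount of 16 (0.33) and without the moderation of the variance. The dimmest gave -0.09. The groups did not overlap in the first and second of these.

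The remaining α chains had an adjusted p of 0.10 or above. Itgav, the α chain of the vitronectin receptors, was at 8.10, 8.20 and 8.07 in mutant and at 7.99, 7.96 and 8.06 in control cells, so that its groups just missed each other (log2 fold change of 0.12, adjusted p = 0.333). The fibronectin receptor chain Itga5 gave 0.08 (95% interval -0.17 to 0.33). The collagen receptor chains Itga1, Itga2 and Itga10 gave 0.16, 0.11 and -0.0016, and Itga7 and Itga8, which bind laminin and nephronectin, gave 0.08 and 0.14. Of these 7 genes, all but Itgav and Itga5 lay below the median probe set, where small changes are hard to measure on an array.

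Among the β chains, Itgb5 was the single gene of 7 with an adjusted p under 0.10. It was higher (14.3% of the chains, beside 7.15% of all genes). It pairs with αv in a receptor for vitronectin. Its brightest probe set was at 8.15, 8.23 and 8.11 in mutant cells, against 7.64, 7.54 and 7.78 in control cells. The groups were well apart, at 8.16 ± 0.06 in mutant and 7.65 ± 0.12 in control cells (SD, n = 3 each), and the log2 fold change was 0.50 (standard error 0.08, adjusted p = 0.0179). This was a fold change of 1.42, under the threshold of 1.5. The other 3 Itgb5 probe sets passed it with all arrays. They were at 7.52, 7.48 and 7.37 in mutant and 6.83, 6.73 and 6.96 in control cells (0.61, adjusted p = 0.0112), at 7.62, 7.30 and 7.39 in mutant and 7.00, 6.57 and 6.87 in control cells (0.63, adjusted p = 0.0434), and at 7.44, 7.33 and 7.32 in mutant and 6.34, 6.76 and 6.93 in control cells (0.69, adjusted p = 0.0433). All 4 Itgb5 probe sets thus had the mutant arrays above the control arrays. The calls did not all stand without single arrays. The first of the 3 lost its call without mutant replicate 1 (0.58) or control replicate 2 (0.56), and the second lost it without mutant replicate 1 (0.53), mutant replicate 3 (0.65) or control replicate 2 (0.50). The last lost it without mutant replicate 1 (0.65), 2 (0.70) or 3 (0.71) or control replicate 1 (0.52). The type of 2 of the called ones (x) means that some of their probes can also match other transcripts. Probe sets of type s can match several transcripts too, and they include the called one of Itga9 and the brightest of Lamb1 and Hspg2.

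Itgb1, the β chain that most laminin, collagen and fibronectin receptors share, showed no such shift. It was at 8.34, 8.41 and 8.32 in mutant and at 8.49, 8.20 and 8.40 in control cells, with overlapping groups and a log2 difference of -0.01 (95% interval -0.21 to 0.20, adjusted p = 0.982). Its 6 probe sets gave values between -0.09 and 0.04. Itgb8, which pairs with αv and activates latent TGFβ, was at 7.52, 7.49 and 7.51 in mutant and 7.56, 7.53 and 7.68 in control cells (-0.08, adjusted p = 0.537). The leukocyte chain Itgb7 gave -0.02, the platelet and vascular chain Itgb3 gave 0.07, and the epithelial chains Itgb4 and Itgb6 gave 0.26 and 0.28, with adjusted p of 0.414 or above for these 4. Itgb3, Itgb4 and Itgb6 lay below the median probe set. The other Itgb3 probe set, of similar brightness, gave -0.19 (adjusted p = 0.238), with the mutant arrays below the control arrays.

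**Figure D3:**
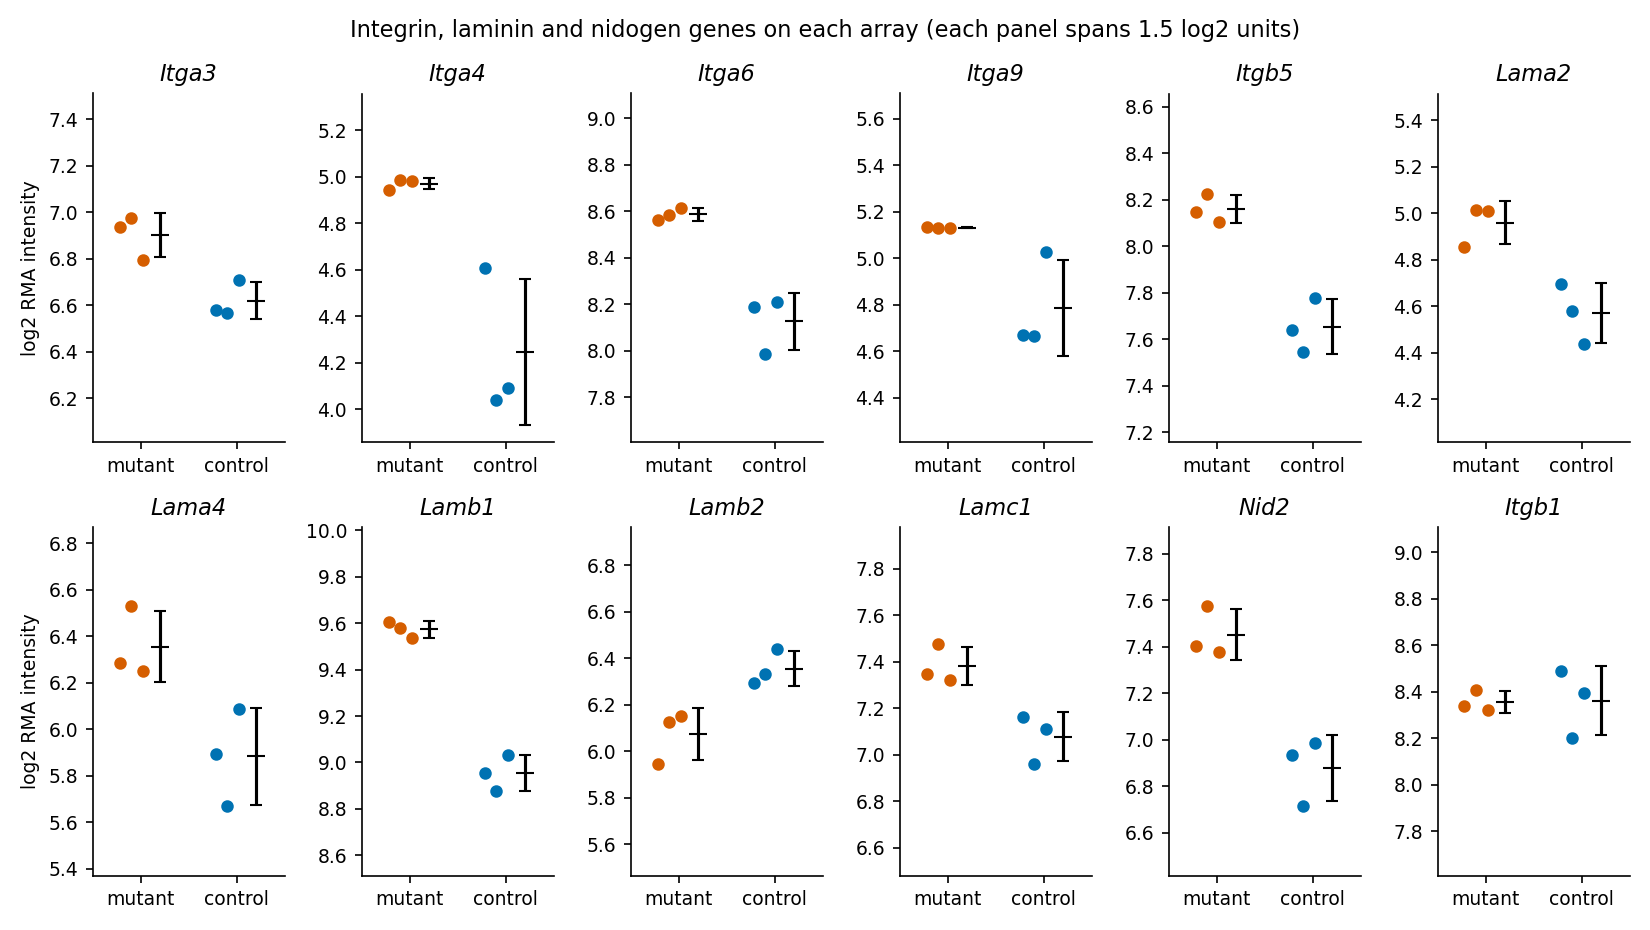
Log2 intensity on each of the 6 arrays for the 11 genes with calls by any probe set or an adjusted p under 0.10, and for Itgb1. Points are single arrays, horizontal lines with bars are means ± SD, and each panel spans 1.5 log2 units, mutant left and control right. Every mutant array lies below every control array for Lamb2, the groups overlap for Itgb1, and in the other panels every mutant array lies above every control array.

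Among the laminins, 4 of 10 measured chains were higher at an adjusted p under 0.10 (40%, beside 7.15% of all genes). The number lower was 1 (10%, beside 5.22%). Lamb1, the β chain of the laminins that form early in the embryo, had log2 intensities of 9.61, 9.58 and 9.53 in mutant cells, against 8.95, 8.88 and 9.03 in control cells. The groups were far apart relative to their spread, at 9.57 ± 0.04 in mutant and 8.95 ± 0.08 in control cells (SD, n = 3 each). The log2 fold change was 0.62 (standard error 0.065, 95% interval 0.47 to 0.77, adjusted p = 0.00627), a fold change of 1.54. A further 2 Lamb1 probe sets were also called, at 7.22, 7.41 and 7.26 in mutant and 6.69, 6.44 and 6.54 in control cells (0.74, adjusted p = 0.00902), and at 7.37, 7.66 and 7.36 in mutant and 6.50, 6.07 and 6.52 in control cells (1.10, adjusted p = 0.0109). The last, far below the median probe set, gave 0.13. Lamb1 fell short of the fold threshold without control replicate 2 (0.58) and stayed called whichever other array was left out.

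Lamb2, the β chain that replaces β1 in mature laminins of the retina and the kidney, went the other way. It was at 5.95, 6.12 and 6.15 in mutant and at 6.29, 6.33 and 6.44 in control cells. All mutant arrays lay below all control arrays, and the log2 fold change was -0.28 (standard error 0.08, adjusted p = 0.0970). This adjusted p was close to its threshold and was above it whichever single array was left out (0.135 to 0.238). The γ chain of most laminins, Lamc1, was at 7.35, 7.47 and 7.32 in mutant and at 7.16, 6.96 and 7.11 in control cells (0.30, standard error 0.08, adjusted p = 0.0780), and its other probe set gave 0.16.

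Of the α chains, Lama4, which is known from vessel walls, was at 6.28, 6.53 and 6.25 in mutant and at 5.89, 5.67 and 6.09 in control cells. Its log2 fold change was 0.47 (standard error 0.12, adjusted p = 0.0816), and its other probe set gave 0.18. Lama2, the α chain of muscle and peripheral nerve laminin, was at 4.85, 5.01 and 5.01 in mutant and 4.70, 4.58 and 4.44 in control cells (0.39, standard error 0.09, adjusted p = 0.0518). The mutant arrays lay above the control arrays in both. Lama1, the α chain of the inner limiting membrane of the retina, was at 6.09, 6.07 and 6.06 in mutant and 6.04, 6.12 and 5.99 in control cells, with a log2 fold change of 0.02 (95% interval -0.12 to 0.17). Lama5, a chain of epithelial basement membranes, gave 0.11 (95% interval -0.14 to 0.36). The epithelial chains Lama3 and Lamb3 gave -0.05 and 0.30 and the chain Lamc3 gave -0.11, with adjusted p of 0.183 or above, and all 3 lay below the median probe set. For Lamb3, the mutant arrays were above the control arrays.

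Both nidogens, the linkers between laminin and collagen IV, had every mutant array above every control array by their brightest probe sets. Nid2 was at 7.40, 7.58 and 7.38 in mutant cells, against 6.93, 6.72 and 6.98 in control cells, with means of 7.45 ± 0.11 in mutant and 6.88 ± 0.14 in control cells (SD, n = 3 each). It was higher by 0.57 on the log2 scale (standard error 0.09, adjusted p = 0.0213), a fold change of 1.49, just under the threshold, and it was called without mutant replicate 1, mutant replicate 3, control replicate 1 or control replicate 3. Nid1 was at 7.70, 7.79 and 7.66 in mutant and 7.55, 7.31 and 7.45 in control cells (0.28, adjusted p = 0.103), just outside an adjusted p of 0.10. Its other probe sets gave 0.32, with overlapping groups, and 0.17. For perlecan, encoded by Hspg2, the brightest probe set gave 0.16 (adjusted p = 0.375) with overlapping groups. The other Hspg2 probe set was lower, at 6.39, 6.45 and 6.34 in mutant and 6.87, 6.62 and 6.64 in control cells (-0.32, adjusted p = 0.0848), so that its direction was not settled. Agrin (Agrn), which clusters receptors at synapses and lies in the retinal basement membrane, gave 0.09 (95% interval -0.08 to 0.26).

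Fibronectin (Fn1), the ligand of α4β1 and α5β1, was at 8.61, 8.66 and 8.41 in mutant and at 8.73, 8.81 and 8.78 in control cells. Its mutant arrays lay below the control arrays. Its log2 fold change was -0.21 (adjusted p = 0.193), and its other probe set gave -0.17. Vitronectin (Vtn), the ligand of αvβ5, was at 3.59, 3.53 and 3.42 in mutant and 3.35, 3.29 and 3.05 in control cells (0.28, adjusted p = 0.143). Tenascin-C (Tnc), a ligand of α9β1, gave 0.22 (adjusted p = 0.388). The Vtn and Tnc values lay below the median probe set, and none of the 3 ligands passed the test.

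The genes with several probe sets differed in how far these matched. Of the 79 probe sets of the listed genes, 8 were called higher (10.1%), 3 of Lamb1, 3 of Itgb5 and 1 each of Itga4 and Itga9, and 0 were called lower. Over the whole array, 1.67% of probe sets were called higher and 0.984% lower. Of the 24 genes with more than 1 probe set, 8 had probe sets with values of both signs.

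**Figure D4:**
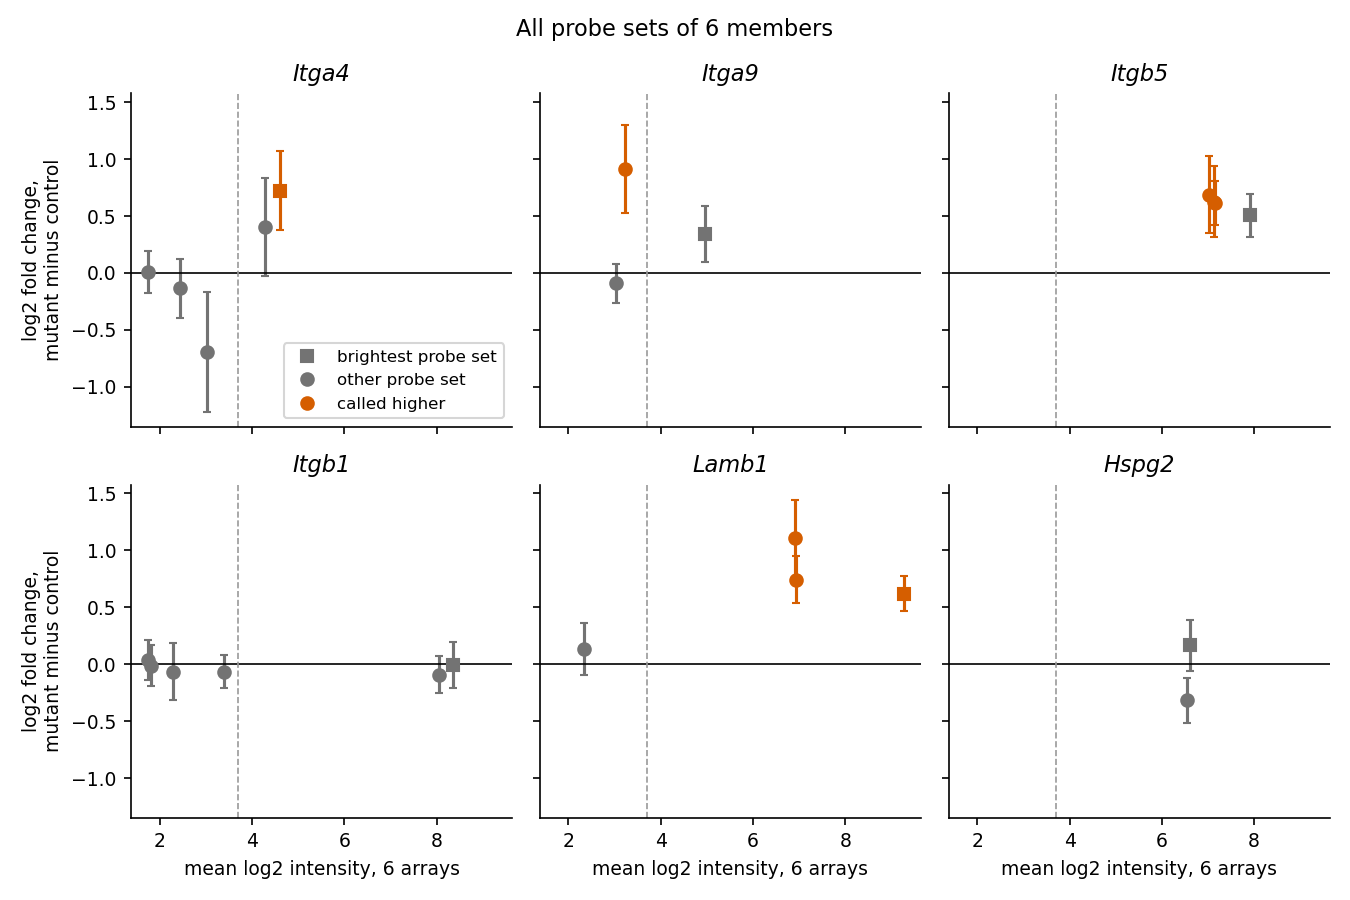
All probe sets of Itga4, Itga9, Itgb5, Itgb1, Lamb1 and Hspg2. The x axis is the mean log2 intensity over the 6 arrays, the y axis the log2 fold change, mutant minus control, with 95% intervals, and the dashed line marks the median probe set (3.70). The bright probe sets of Itgb5 and Lamb1 all lay above 0, those of Itgb1 lay near 0, those of Hspg2 lay on both sides, and for Itga4 the probe sets right of the line lay above 0 and those left of it at or below 0.01.

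The calls differed in how far they held when single arrays were left out. Itga6, Itgb5, Lamb1 and Nid2 had an adjusted p under 0.10 in all 6 fits that left out 1 array, Itga4 and Lama2 in 2, Itga3, Lama4 and Lamc1 in 1 and Lamb2 in 0. Control replicate 2 had the lowest control value for 8 of the 9 genes that were higher. How often this array was lowest over all genes was not counted, so whether this is particular to these genes cannot be told. The same array had the lowest control sum for the pigment epithelium, endothelial and blood lists, and the part of this in the results was not tested. Without it, the log2 fold changes of Itga6, Itgb5, Lamb1 and Nid2 were 0.39, 0.45, 0.58 and 0.49.

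The intracellular and surface partners of the integrins were read from a list of 30 genes, of which 28 were measured. Among them, 2 genes were called higher (7.14%, beside 2.28% of all genes) and none was called lower. Both code for cell-surface ligands of leukocyte integrins. Vcam1, the ligand of α4β1, was at 4.44, 3.64 and 3.71 in mutant and 3.01, 2.36 and 3.15 in control cells (1.09, adjusted p = 0.0675), and Icam1, a ligand of β2 integrins, was at 6.42, 6.39 and 6.13 in mutant and 5.46, 4.94 and 5.78 in control cells (0.92, adjusted p = 0.0501). For both genes the mutant arrays lay above the control arrays, and Vcam1 lay below the median probe set. Both lost the call without mutant replicate 1, mutant replicate 2 or control replicate 1, and Vcam1 also lost it without mutant replicate 3 or control replicate 2. Smaller rises at an adjusted p under 0.10 were those of the focal adhesion adaptor Pxn (0.48, adjusted p = 0.0149), the parvin Parvb (0.43), Rsu1 (0.30), the tetraspanins Cd9 (0.46) and Cd151 (0.28), and Madcam1 (0.53, adjusted p = 0.0101), a ligand of α4β7. The median of the list was 0.17.

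A list of other basement membrane and matrix genes held more calls than the integrins, the laminins or the integrin partners. Of 28 measured genes of 30 listed, 6 were called higher (21.4%, beside 2.28% of all genes) and none lower. At an adjusted p under 0.10, 11 were higher (39.3%, beside 7.15%) and 1 lower (3.57%, beside 5.22%). The median log2 fold change was 0.26. Thrombospondin-1 (Thbs1), a matricellular protein, was at 7.56, 7.69 and 7.52 in mutant and 6.68, 5.98 and 6.47 in control cells (1.21, adjusted p = 0.0128). The fibulins Efemp1 and Fbln5, which belong to elastic matrix, gave 0.94 (adjusted p = 0.00921) and 0.74 (adjusted p = 0.0142). Frem2, of the Fraser complex that anchors embryonic epithelia, gave 0.79 (adjusted p = 0.0153), the α5 laminin receptor gene Bcam gave 0.66 (adjusted p = 0.0190), and nephronectin (Npnt), the ligand of α8β1, gave 0.61 (adjusted p = 0.0257). Of these 6 genes, Bcam lost the call without mutant replicate 2 and Npnt without mutant replicate 3 or control replicate 2. The collagen IV genes Col4a1 and Col4a2, the core of the network that nidogen ties to laminin, gave 0.10 and 0.13 and did not pass the test. Of the other collagen IV chains, Col4a4 was higher by 0.40 at an adjusted p of 0.0916 with the mutant arrays above the control arrays, and Col4a3, a dim gene, gave 0.61 (adjusted p = 0.132) and was called without mutant replicate 3. Col4a5 gave 0.15 and Col4a6 gave 0.05. Sparc and Col18a1 were higher by 0.34 and 0.45 (adjusted p = 0.0208 and 0.0260), and Smoc1 was lower (-0.37, adjusted p = 0.0312). The mesenchymal and endothelial marker lists, whose cells make matrix, were higher on the same arrays, and their part in these values was not tested.

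**Figure D5:**
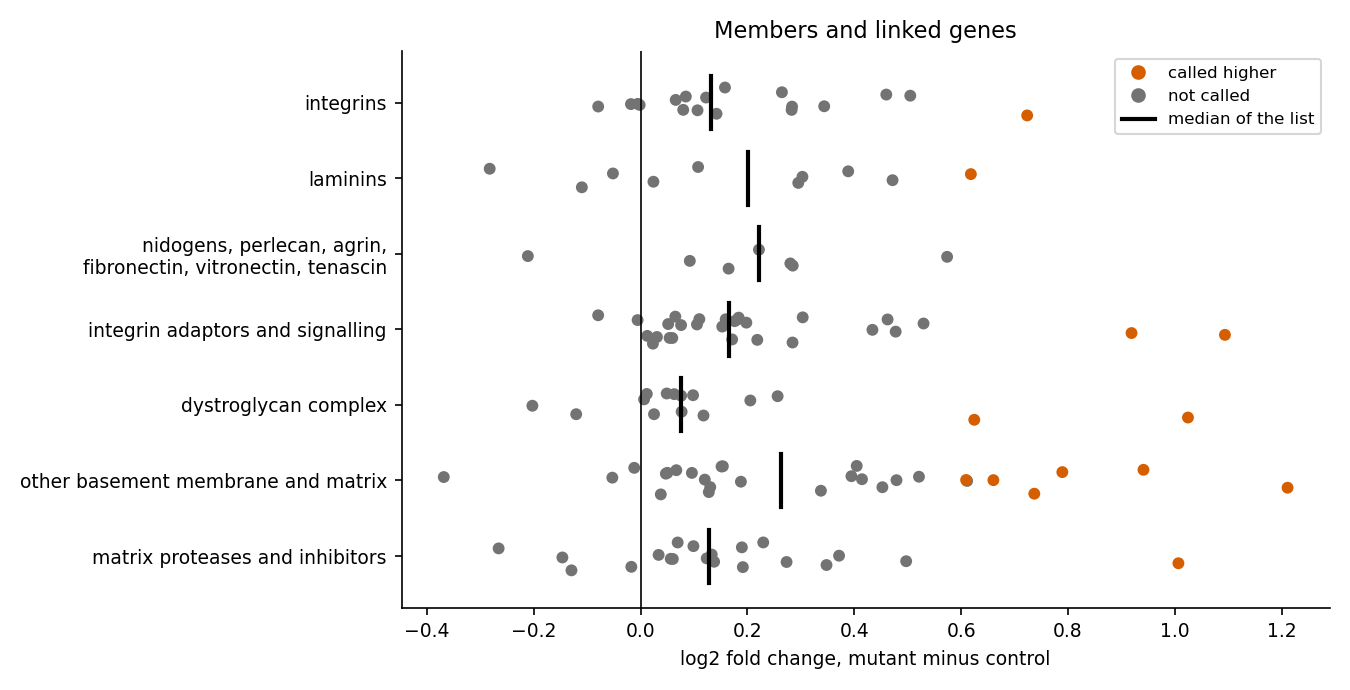
Log2 fold change, mutant minus control, of each listed gene and of the linked genes, by list. Points are genes (brightest probe set), vertical bars are list medians, and vertical scatter within a row only separates points. Of the lists shown, that of other basement membrane and matrix genes has the highest median (0.26) and 6 called genes, against 0.13 and 1 called gene for the integrins and 0.20 and 1 called gene for the laminins.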

How the data were processed

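Total RNA of 3 pools of sorted Pax6-deficient RPCs and 3 pools of control RPCs was hybridised to 1 array each. The deposited values are intensities on a linear scale, which the authors made by RMA (background correction, normalisation between arrays and summary per probe set); the processing notes name Affymetrix Expression Console too, with no version in the sources read. Log2 was taken, 64 control probe sets were left out, and the remaining 45037 probe sets were compared with limma 3.58.1 in R 4.3.3 (lmFit and eBayes, no covariate). Adjusted p-values are over all of these. The calling thresholds follow the methods. The annotation pairs 34945 probe sets with 1 symbol, 932 with several and 9160 with none, and can be old; only the first were named. A gene was given by its probe set of highest mean. The listed genes, the linked lists and the marker lists were chosen with earlier results of these data known. Per-array values are given for genes called by any probe set or with an adjusted p under 0.10, and for others where a comparison turned on them; these others were chosen after their values were seen; linked genes with calls are named. The fit was tested on simulated data. No scan date or batch was given, so a batch could not be tested. The number of arrays limits the precision, and if pools shared embryos or handling the p-values measure only the spread between these arrays.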

Additional observations from a re-analysis of the deposited data

How the results depend on the processing

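Of the counts over the 35 genes, no gene was called lower under any setting run. The number called higher (2) was 1 without the moderation of the variance and 1 with a pseudocount of 16, both times Lamb1, and 0 to 3 when single arrays were left out, with 0 without control replicate 2. The number with an adjusted p under 0.10 (10) was 3 without moderation, and 4 to 9 when single arrays were left out. Subtracting array medians gave 10 higher and 0 lower, against 9 and 1. Leaving out probe sets of type s or x gave 9 higher and 2 lower, Lamb2 and Hspg2, and Itga4 and Lamb1 stayed called. The median log2 fold change (0.158) was 0.0893 with the pseudocount, 0.0925 by the median of each gene's probe sets and 0.114 to 0.216 when single arrays were left out. Itga4 reversed to -0.69 by the median of its probe sets, which on every array was the value of a single dim probe set. The causes of the other shifts were not tested. Same-numbered arrays showed no shared deviation from their group means, with correlations over all probe sets of -0.0106, -0.0006 and -0.0085. The sources used do not say whether the replicate numbers pair the arrays. With the replicate number as a block, 2 genes were called higher and 5 had an adjusted p under 0.10 (Itga4, Itga6, Itgb5, Lamb1 and Nid2). Over all probe sets, the number called was 1195, and 460 without moderation, 517 with the pseudocount and 886 to 1232 without single arrays. Without moderation, 0 integrin partner genes and 1 further matrix gene (Efemp1) were called. Signals below the median probe set limit 13 of the 35 genes.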

Other observations

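Dystroglycan is the other main laminin receptor of the retina and binds laminin through its sugar chains. Of 15 measured genes of its complex and of its glycosylation, 2 were called higher (13.3%, beside 2.28% of all genes) and none lower. The median log2 fold change was 0.08. Sarcospan (Sspn) was at 3.83, 3.74 and 3.59 in mutant and 2.72, 2.44 and 2.92 in control cells (1.02, adjusted p = 0.0103 from limma), below the median probe set. Large2, a glycosyltransferase that extends the laminin-binding sugar, was at 5.31, 5.57 and 5.49 in mutant and 4.88, 4.83 and 4.79 in control cells (0.62, adjusted p = 0.0110 from limma), and it lost the call without mutant replicate 2. With a pseudocount of 16, neither gene was called.

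Of 20 measured proteases, inhibitors and cross-linking enzymes of the matrix, 1 was called higher (5%, beside 2.28% of all genes) and none lower. Loxl1, which cross-links elastin, was at 7.61, 7.45 and 7.69 in mutant and 6.65, 6.56 and 6.53 in control cells (1.01, adjusted p = 0.00315 from limma), and it stayed called whichever single array was left out. Mmp2 (0.37), which degrades collagen IV, and the inhibitors Timp1 (0.50) and Timp3 (0.27) were higher at an adjusted p under 0.10 from limma.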
